A study of Mus musculus with 8 samples.

Results

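The 10 genes described here are Foxp3 and a core set of genes used to mark regulatory T cells (Tregs): the Ikaros family members Ikzf1, Ikzf2, Ikzf3 and Ikzf4, the surface protein genes Nrp1, Gpr83 and Izumo1r, and the genes Capg and Satb1. They were taken from the deposited tables by gene symbol, through the Ensembl identifier of each row. All 10 were found among the 47069 Ensembl genes that both tables hold, and all 10 passed the filter on low values, as did 12273 genes in all.

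Both populations were Tregs sorted from lymph nodes of C57BL/6 mice of 6 to 8 weeks that carried the reporters 35EbiT and Blimp1-GFP KI, so the comparison holds both reporters constant. Ebi3-Treg cells were positive for Thy1.1, which 35EbiT places on cells that express Ebi3, a subunit of the cytokine interleukin-35, and were negative for the GFP of Blimp1, the repressor encoded by Prdm1. Blimp1-Treg cells had the opposite pattern, negative for Thy1.1 and positive for Blimp1. Both were gated as CD25 positive and CD62L low after bead enrichment of CD4 T cells, to a purity above 90% per the labels' protocols. Each population has 4 libraries, numbered 1 to 4; replicates 1 and 2 stand in one table and replicates 3 and 4 in the other. The labels do not say whether the numbers stand for separate animals or pools, so a p-value here reflects how far these libraries spread, and that spread may be technical.

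Foxp3 encodes the forkhead transcription factor that defines the Treg lineage. The Ikaros family are zinc-finger transcription factors that bind DNA as dimers with one another and recruit chromatin complexes: Ikzf1 encodes Ikaros, Ikzf2 Helios, Ikzf3 Aiolos and Ikzf4 Eos. Helios and Eos are abundant in Tregs, Eos is a partner of Foxp3 in gene silencing, and Aiolos is best known from B cells and from helper T cells that make interleukin-17. Neuropilin-1 (Nrp1) is a co-receptor for semaphorins and vascular endothelial growth factor, and is high on mouse Tregs that arose in the thymus.

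Libraries were 13.3 to 31.3 M fragments deep (M, mega), as estimated from the steps of the lowest FPKM values (fragments per kilobase of transcript and per mega mapped fragments). At that depth a member gene held from about 2105 to 138341 fragments in a library, reckoned with reference exon lengths. With these lengths 34.9% to 45.5% of the values of a library gave whole numbers of fragments. The lengths may thus differ from those the authors used, and the fragment numbers are rough. The low-input kit amplifies its cDNA, so these fragments do not give the counting error of the RNA molecules. The genes behind the gates followed the sort: Prdm1 ranged from 1.94 to 4.33 FPKM in Ebi3-Treg while Blimp1-Treg had 52.2 to 121 FPKM, and Ebi3 at 20.1 to 46.6 FPKM against 4.94 to 11.7 FPKM. T cell markers (Cd3d, Cd3e, Cd3g, Cd4 and Trac) summed to 4404 to 6838 FPKM in Ebi3-Treg and 6196 to 9766 FPKM in Blimp1-Treg. Summed over 9 B cell markers, the level was 183 to 266 FPKM in the library numbered 1 of either population and 32.9 to 72.7 FPKM in the other 6. Macrophage or monocyte markers summed to 97.6 and 109 FPKM in Ebi3-Treg 2 and 1 and to at most 36.9 FPKM elsewhere. Lyz2 alone was 91.1 and 99.1 FPKM in those libraries. Csf1r, Adgre1, Cd14 and Itgam were at most 2.4 FPKM in them. Cd68 was at 5.16 and 5.51 FPKM there and reached 8.6 FPKM in Blimp1-Treg 2. Summed markers of CD8 T cells reached 39.3 FPKM, of NK cells 20.9, of dendritic cells 14.3 and of stromal or endothelial cells 65.7, each highest in Ebi3-Treg 1. Most of the first and last of these sums came from 1 gene each in that library, Cd8b1 (32.1 FPKM) and Pecam1 (61.2 FPKM). Cd8a, Klre1, Itgam, Clec9a, Cdh5, Pdpn and Ccl21a were at 0 in some library and no marker was at 0 in all. Fits without the libraries numbered 1 are given below, but the part of these other cell types in the results was not tested.

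Between the populations Foxp3 itself did not pass the test, while 4 of the 10 genes did. Nrp1 and Gpr83 were higher in Ebi3-Treg, and Ikzf3 and Capg were higher in Blimp1-Treg (limma on log2(FPKM + 1), Benjamini-Hochberg adjusted p under 0.05 over all genes tested; such a gene is said to be called). Among all genes 6.29% were called in either direction, 3.37% as higher in Ebi3-Treg and 2.93% as lower. The same 4 genes are the members whose 4 libraries of one population lay wholly above those of the other, a pattern that 11.1% of all tested genes have. The median log2 fold change of the 10 genes was 0.29, beside 0.07 over all genes tested, with 6 of the 10 values positive. The genes were chosen with earlier results of these data known, so the count describes them and is not set against chance. In bulk RNA, fewer cells of a type and less RNA per cell cannot be told apart.

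Within tables, same-numbered libraries of the 2 populations deviated together for numbers 1 and 2 (r = 0.847) but not for 3 and 4 (r = -0.0844). Each result was also fitted with the replicate number as a block, a pairing that numbers 3 and 4 do not bear out. In that fit 7 of the 10 genes were called, 5 as higher in Ebi3-Treg and 2 as lower. Over all genes that fit called 22.4%, 13.5% as higher and 8.94% as lower. Ikzf1, Ikzf4 and Satb1 are the genes it adds, all as higher in Ebi3-Treg. Within replicates 3 and 4 alone, 4 of the 10 were called (Nrp1 and Satb1 higher, Ikzf3 and Capg lower in Ebi3-Treg) against 11% of all genes, 5.51% higher and 5.47% lower. Within replicates 1 and 2 alone, limma called no gene of all tested (0%), and 707 had an unadjusted p under 0.05.

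**Figure D1:**
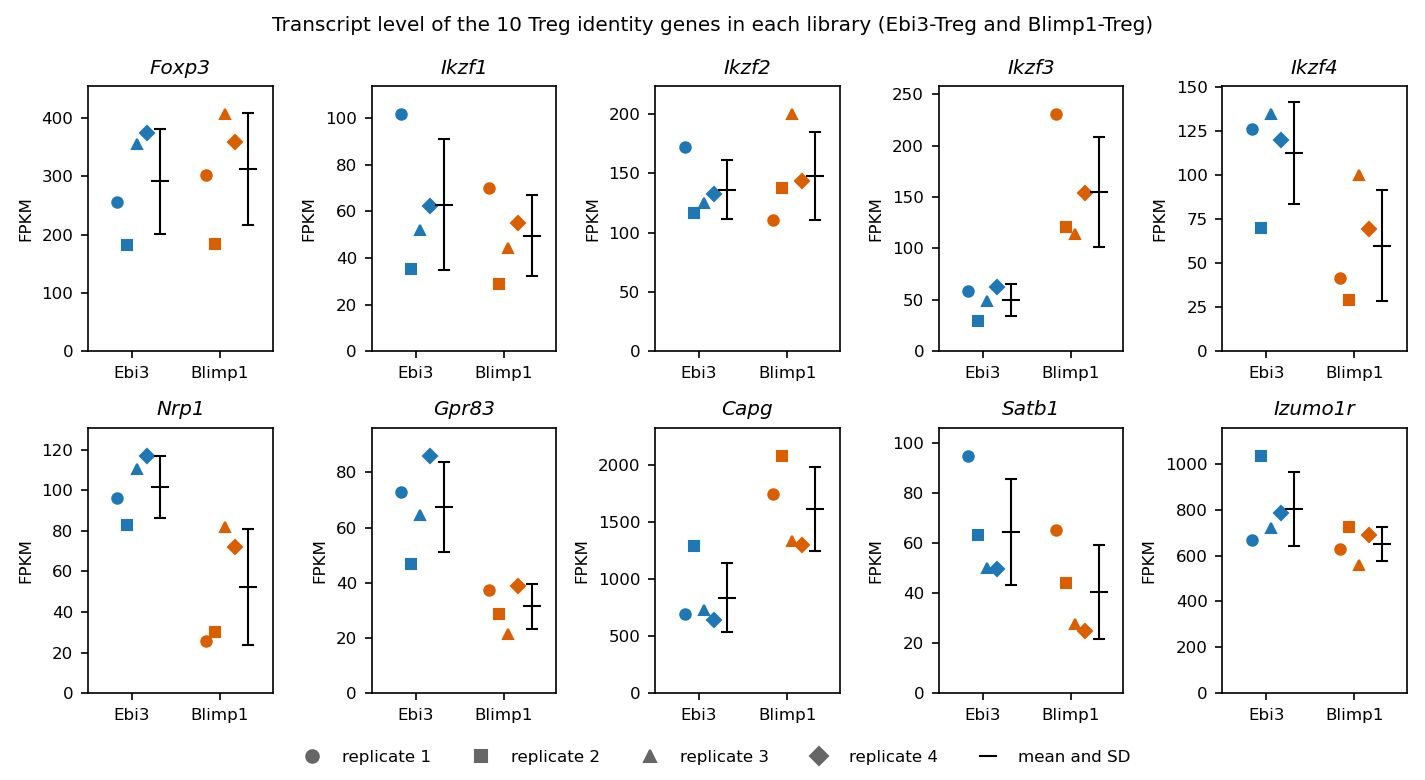
FPKM (vertical axis, linear, from 0) of each of the 10 genes in the 4 Ebi3-Treg libraries (blue) and the 4 Blimp1-Treg libraries (orange), with replicate number by symbol and the mean with SD as a black bar. Nrp1, Gpr83, Ikzf3 and Capg have no overlap between the populations, and Foxp3 is lowest in the library numbered 2 of both.

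Foxp3 (ENSMUSG00000039521, chromosome X) was the third most abundant of the 10 transcripts in both populations, with ranges that overlapped. It stood at 255, 182, 355 and 375 FPKM in Ebi3-Treg replicates 1 to 4. In Blimp1-Treg it stood at 303, 184, 406 and 358 FPKM. The library numbered 2 was the lowest in either population, and each range covered most of the other. The means were 291.5 ± 90.0 and 313 ± 95.6 FPKM (SD, n = 4 each), and the log2 fold change was -0.10 (SE 0.19, limma adjusted p = 0.886). Its 95% interval, -0.54 to 0.34, leaves room for a difference of either sign and so does not show that the levels are equal. The differences within the tables were -0.13 for replicates 1 and 2 and -0.07 for replicates 3 and 4, both log2, and leaving out Ebi3-Treg 2 or Blimp1-Treg 1 turned the sign (0.01 and 0.05).

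Foxp3's exons are shared in part with other annotated genes, which matters where the counting method is not stated. In GENCODE M21, 18.6% of its exon bases lie in Flicr, a noncoding RNA of the same strand, and 12.9% in Ccdc22 of the opposite strand. Flicr was at 5.58 to 11.9 FPKM and Ccdc22 at no more than 0.0224 FPKM, being listed at 0 in 6 libraries. Of their own exon bases, 23.8% of Flicr's and 17.2% of Ccdc22's lie in Foxp3 exons. Reads in shared bases may have been assigned to either gene or left uncounted. Why Ccdc22 was near 0 was not tested.

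**Figure D2:**
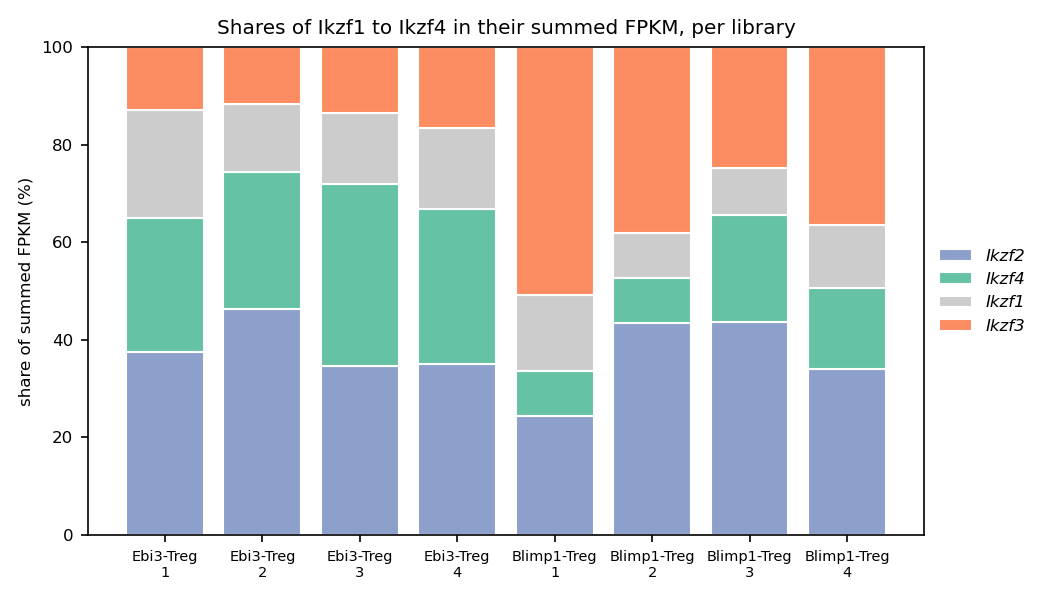
Share (percent) of Ikzf2, Ikzf4, Ikzf1 and Ikzf3 in their summed FPKM, 1 bar per library, Ebi3-Treg 1 to 4 at the left and Blimp1-Treg 1 to 4 at the right. Ikzf3 takes 11.6% to 16.7% of the sum in Ebi3-Treg and 24.8% to 50.9% in Blimp1-Treg, and Ikzf4 takes the larger share in Ebi3-Treg.

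Within the Ikaros family the populations differed most in Ikzf3 (Aiolos; ENSMUSG00000018168, chromosome 11), which was 3.09-fold higher in Blimp1-Treg. Its level was 59.1, 29.2, 48.7 and 63.0 FPKM in Ebi3-Treg replicates 1 to 4. In Blimp1-Treg it was 230.2, 121, 114 and 154 FPKM. Every Blimp1-Treg library lay above every Ebi3-Treg library, and the within-number ratio was 3.90, 4.14, 2.33 and 2.44. The means were 49.98 ± 15.1 and 155 ± 53.3 FPKM (SD, n = 4 each), with a log2 fold change of -1.61 (SE 0.31, 95% interval -2.33 to -0.89, limma adjusted p = 0.0221). Aiolos is also expressed by B cells, whose markers were highest in the libraries numbered 1. Without both of those libraries its log2 fold change was -1.50 (limma adjusted p = 0.00648), and without both numbered 2 it was -1.475 (0.005165). The part of B cells in this difference was not tested. The call was lost without Ebi3-Treg 3 (adjusted p = 0.0779) or without Blimp1-Treg 4 (0.0858).

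Ikzf4 (Eos; ENSMUSG00000002578, chromosome 10) ran in the opposite direction to Ikzf3 and did not pass the test. It was at 126, 70.1, 134 and 120 FPKM in Ebi3-Treg and at 41.5, 29.3, 100.1 and 69.3 FPKM in Blimp1-Treg. The Ebi3-Treg library was above its same-numbered counterpart in 4 of 4 pairs, by 3.05, 2.40, 1.34 and 1.73 times. Across the tables the ranges overlapped, since Blimp1-Treg 3 and Ebi3-Treg 2 crossed, while within each table they did not. The log2 fold change was 1.01 (SE 0.27, 95% interval 0.39 to 1.62, limma adjusted p = 0.069). With the replicate block the adjusted p was 0.00941, and it was under the threshold as well after median-ratio scaling (0.0446), without both libraries numbered 1 (0.0321) and without both numbered 2 (0.0399).

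Ikzf2 (Helios; ENSMUSG00000025997, chromosome 1) showed no difference that passed the test. Ebi3-Treg libraries held 172, 117, 125 and 133 FPKM and Blimp1-Treg libraries 111, 137, 200 and 144 FPKM. The populations overlapped, but the 2 tables pointed opposite ways. In replicates 1 and 2 the log2 fold change was 0.20 and in replicates 3 and 4 it was -0.40, where both Blimp1-Treg libraries lay above both Ebi3-Treg libraries. Over all 8 it was -0.10 (SE 0.20, 95% interval -0.57 to 0.37, limma adjusted p = 0.897), and leave-one-out values ranged from -0.27 to 0.05.

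Ikzf1 (Ikaros; ENSMUSG00000018654, chromosome 11) varied more among the replicate numbers than between the populations. It was at 102, 35.3, 52.2 and 62.1 FPKM in Ebi3-Treg and at 70.2, 29.0, 44.2 and 55.1 FPKM in Blimp1-Treg, highest in library 1 and lowest in library 2 of both. Within each number the Ebi3-Treg library was the higher one, by 1.45, 1.22, 1.18 and 1.13 times. The log2 fold change was 0.30 (SE 0.37, 95% interval -0.56 to 1.16, limma adjusted p = 0.794) without the block and carried an adjusted p of 0.0479 with it. Ikaros is a B cell gene too, and the libraries numbered 1 were those with the most B cell marker RNA. Without both of those libraries the log2 fold change was 0.23 (limma adjusted p = 0.252), and without both numbered 2 it was 0.31 (0.1555). Without Ebi3-Treg 1 alone it was -0.02. The part of B cells in these values was not tested.

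Read as shares of the summed FPKM of the 4 genes, the family's makeup differed while its sum was close: 362 ± 85.5 FPKM in Ebi3-Treg while Blimp1-Treg had 412 ± 65.6 FPKM (SD, n = 4 each). Ikzf3 made up 13.7 ± 2.15% of the sum in Ebi3-Treg and 37.6 ± 10.7% in Blimp1-Treg. Ikzf4 made up 31.1 ± 4.55% and 14.2 ± 6.16%, and Ikzf2 38.4 ± 5.47% and 36.4 ± 9.12%. The ratio of Ikzf3 to Ikzf4 was 0.468, 0.416, 0.362 and 0.525 in Ebi3-Treg replicates 1 to 4, below 1 in each. In Blimp1-Treg it was 5.55, 4.13, 1.14 and 2.22, above 1 in each. These shares and ratios were formed from the same values as the fold changes above and were not tested. Ikzf5 (Pegasus), the family's distant relative, was at 21.0 ± 1.70 and 24.3 ± 2.37 FPKM (limma adjusted p = 0.549).

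Nrp1 (ENSMUSG00000025810, chromosome 8) was higher in Ebi3-Treg, with the wider gap in replicates 1 and 2. It was at 96.1, 83.0, 110.5 and 117 FPKM in Ebi3-Treg and at 25.9, 30.2, 82.0 and 72.0 FPKM in Blimp1-Treg. No Blimp1-Treg library reached the lowest Ebi3-Treg library, although Blimp1-Treg 3 came within about 1 FPKM of it. The means were 102 ± 15.1 and 52.5 ± 28.6 FPKM (SD, n = 4 each), with a log2 fold change of 1.1 (SE 0.23, 95% interval 0.57 to 1.63, limma adjusted p = 0.0296). The Ebi3-Treg level was 3.71 and 2.75 times the Blimp1-Treg level in pairs 1 and 2, and 1.35 and 1.62 times in pairs 3 and 4. As a test of that difference, the interaction was -1.08 on the log2 scale (SE 0.28), with an unadjusted p of 0.00597 in limma that did not pass adjustment over all genes (0% of genes called, 203 with an unadjusted p under 0.05). The call held in 1 of 8 leave-one-out fits, that without Blimp1-Treg 3 (adjusted p = 0.044), and the highest adjusted p was 0.0839, without Ebi3-Treg 2.

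Gpr83 (ENSMUSG00000031932, chromosome 9), a G protein-coupled receptor gene that Foxp3 is known to raise, was 2.14-fold higher in Ebi3-Treg. Ebi3-Treg libraries held 72.9, 46.7, 64.6 and 85.8 FPKM and Blimp1-Treg libraries 37.4, 28.6, 21.5 and 38.8 FPKM. All 4 Ebi3-Treg libraries were above all 4 Blimp1-Treg libraries. The means were 67.5 ± 16.4 and 31.6 ± 8.09 FPKM (SD, n = 4 each), with a log2 fold change of 1.08 (SE 0.25, 95% interval 0.49 to 1.66, limma adjusted p = 0.0469). It was called in 1 of 8 leave-one-out fits, that without Ebi3-Treg 2 (limma adjusted p = 0.038), and without Ebi3-Treg 4 the adjusted p was 0.154. Of 11 other settings, 6 kept the call. It was lost with a pseudocount of 0.1 or 0.01, no filter on low values, no table term or no variance trend. The limma adjusted p there ran from 0.0502 to 0.128, the latter with no filter. Within replicates 3 and 4 alone it was 0.056.

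Izumo1r (ENSMUSG00000031933, chromosome 9), also known as Folr4, encodes folate receptor 4, a surface protein of Tregs and of anergic CD4 T cells. It is the direct protein-coding neighbour of Gpr83 in GENCODE M21, on the opposite strand, and per kilobase its level was 9.13 to 26.0 times that of Gpr83 in the same library. Ebi3-Treg libraries held 666, 1031, 721 and 784 FPKM and Blimp1-Treg libraries 627, 723, 559 and 691 FPKM, with overlapping ranges. The Ebi3-Treg library was the higher one in 4 of 4 pairs, but the difference did not pass the test (log2 fold change 0.29, SE 0.17, 95% interval -0.11 to 0.68, limma adjusted p = 0.454; 0.0776 with the replicate block).

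Promoter sequence was set beside the 3 called genes that have an entry in the RefSeq promoter table (GRCm38.p6), and beside Izumo1r as the neighbour of Gpr83 that was not called. Of the 10 genes 7 have entries there, 13 in all. The 250 bases before the start are printed 5′ to 3′ on the gene's strand, in lower case, with each match to the Ikaros core letters TGGGAA, searched on both strands, in capitals. These letters occur in 25.6% of 32851 promoters of 300 bases (the 250 bases and the 50 after the start), so a match is common. They are in 5 of the 13 member entries.
Gpr83: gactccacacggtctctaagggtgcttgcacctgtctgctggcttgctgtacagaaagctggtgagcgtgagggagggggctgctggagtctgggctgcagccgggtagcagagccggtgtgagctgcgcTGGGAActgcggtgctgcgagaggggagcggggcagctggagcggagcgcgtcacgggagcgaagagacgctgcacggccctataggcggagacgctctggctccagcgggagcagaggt
Izumo1r: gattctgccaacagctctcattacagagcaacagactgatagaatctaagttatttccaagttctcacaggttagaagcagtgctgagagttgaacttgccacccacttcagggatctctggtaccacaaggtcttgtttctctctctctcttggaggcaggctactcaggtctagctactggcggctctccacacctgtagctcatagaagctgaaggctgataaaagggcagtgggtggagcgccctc
Nrp1: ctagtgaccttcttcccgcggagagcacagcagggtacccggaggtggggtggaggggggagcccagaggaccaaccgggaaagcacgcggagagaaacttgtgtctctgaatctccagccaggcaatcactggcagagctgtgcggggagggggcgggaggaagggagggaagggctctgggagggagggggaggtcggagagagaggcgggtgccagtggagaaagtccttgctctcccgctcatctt
Capg: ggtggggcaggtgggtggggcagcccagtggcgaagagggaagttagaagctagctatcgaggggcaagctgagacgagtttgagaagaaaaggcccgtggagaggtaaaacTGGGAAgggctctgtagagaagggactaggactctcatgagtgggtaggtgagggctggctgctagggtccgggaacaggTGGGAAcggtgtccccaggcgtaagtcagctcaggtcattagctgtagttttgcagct
The Gpr83 stretch (chr9:14859960-14860209, plus strand) holds 1 match and the Capg stretch (chr6:72549397-72549646, plus strand) holds 2. The Izumo1r stretch (chr9:14903768-14904017, minus strand) and the Nrp1 stretch (chr8:128358823-128359072, plus strand) hold none. A gene higher in Ebi3-Treg and a gene lower in it thus both carry the letters, and another gene higher in it does not. The forkhead letters TGTTTAC, found in 3.65% of promoters, are in none of the 13 entries. The letters AGNGAAAG, part of the Blimp1 site and found in 8.63% of promoters, are in 1 entry, of Ikzf1. No entry overlapped 2 motifs. A match here is a description of letters, not of a bound site.

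Capg (ENSMUSG00000056737, chromosome 6), which encodes a protein that caps the ends of actin filaments, was the most abundant of the 10 transcripts and was 1.92-fold higher in Blimp1-Treg. Its level was 695, 1289, 731 and 644 FPKM in Ebi3-Treg and 1749, 2078, 1339 and 1298 FPKM in Blimp1-Treg. The populations did not overlap, but Ebi3-Treg 2 came within 9 FPKM of the lowest Blimp1-Treg library. Library 2 was the highest of its population on both sides. The means were 840 ± 302 and 1616 ± 369 FPKM (SD, n = 4 each), with a log2 fold change of -0.98 (SE 0.20, 95% interval -1.44 to -0.51, limma adjusted p = 0.0289). The tables gave -1.01 and -0.94, and the difference between them was 0.07 (SE 0.44). The call held without Ebi3-Treg 1 (adjusted p = 0.0251) or Ebi3-Treg 2 (0.0144) and was lost in the other 6 leave-one-out fits (up to 0.109, without Ebi3-Treg 4), and after median-ratio scaling the adjusted p was 0.061.

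Satb1 (ENSMUSG00000023927, chromosome 17) encodes a chromatin organiser that Foxp3 is known to repress in mature Tregs. It was at 94.8, 63.3, 50.2 and 49.9 FPKM in Ebi3-Treg and at 65.5, 44.1, 27.7 and 25.0 FPKM in Blimp1-Treg. Levels in both populations were highest in library 1, followed by library 2, and the 2 ranges overlapped across tables. Within each number Ebi3-Treg was the higher one, by 1.45, 1.44, 1.81 and 2.0 times. The log2 fold change was 0.71 (SE 0.19, 95% interval 0.26 to 1.16, limma adjusted p = 0.0749), with an adjusted p of 0.00425 under the replicate block and 0.0105 within replicates 3 and 4. It was under the threshold without Ebi3-Treg 2 (0.0412), Blimp1-Treg 1 (0.0436), both libraries numbered 1 (0.00759) or both numbered 2 (0.00563).

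**Figure D3:**
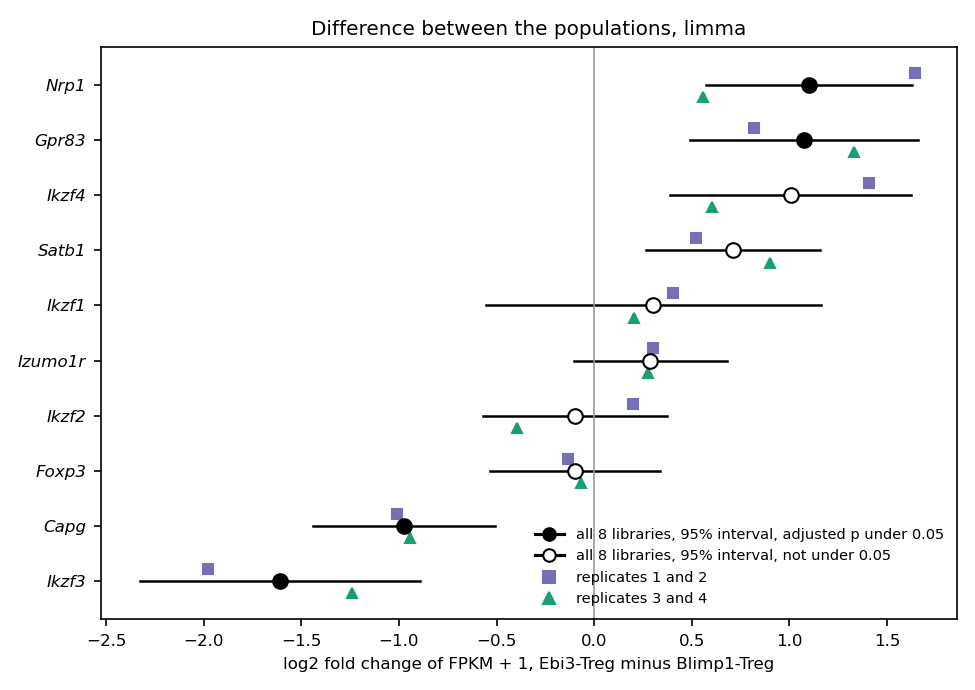
Log2 fold change of FPKM + 1, Ebi3-Treg minus Blimp1-Treg (horizontal axis), of the 10 genes over all 8 libraries with its 95% interval (circles; filled where the limma adjusted p was under 0.05), and within replicates 1 and 2 (squares) and replicates 3 and 4 (triangles). Capg and Foxp3 have nearly the same value in both tables, while Nrp1 and Ikzf4 have the larger value in replicates 1 and 2 and Ikzf2 changes sign.

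The order of the levels, per kilobase of transcript, differed in its lower part. In Ebi3-Treg the order by mean FPKM was Capg, Izumo1r, Foxp3, Ikzf2, Ikzf4, Nrp1, Gpr83, Satb1, Ikzf1 and Ikzf3. The steps that held in 4 of 4 libraries were those from Izumo1r to Foxp3, from Foxp3 to Ikzf2 and from Nrp1 to Gpr83, and the other neighbours crossed in at least 1 library. In Blimp1-Treg the order was Capg, Izumo1r, Foxp3, Ikzf3, Ikzf2, Ikzf4, Nrp1, Ikzf1, Satb1 and Gpr83, with the steps from Capg to Izumo1r, Izumo1r to Foxp3, Foxp3 to Ikzf3 and Ikzf2 to Ikzf4 held in 4 of 4. Ikzf3 stood 10th in Ebi3-Treg and 4th in Blimp1-Treg. Its mean there was close to that of Ikzf2, but its ratio to Ikzf2 was 2.08, 0.880, 0.569 and 1.07 in libraries 1 to 4. Relative to Foxp3 in the same library, Nrp1 was 0.311 to 0.457 in Ebi3-Treg and 0.0855 to 0.202 in Blimp1-Treg, Ikzf4 was 0.320 to 0.495 and 0.137 to 0.246, and Ikzf2 was 0.352 to 0.674 and 0.366 to 0.746.

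The genes whose pattern was most like each member were ranked by Pearson r over the 8 libraries after subtracting each table's mean, among 8417 eligible genes. The 8 points share tables, replicate numbers and depths, and the values describe these libraries only. The difference between the populations was not subtracted, so r holds it. The call of a gene picked this way follows in part from the pick and is not separate evidence. Nearest to Foxp3 were Zfp36 (r = 0.985), which encodes an RNA-binding protein that destabilises transcripts, then Spg7, Ccdc134 and Fbxl8. Zfp36 itself measured 525 ± 196 FPKM in Ebi3-Treg while Blimp1-Treg had 563 ± 209 FPKM. Nearest to Nrp1 were Gucy1a1 (r = 0.998), a subunit of soluble guanylate cyclase, and Mctp1 (r = 0.987). Gucy1a1 was called as higher in Ebi3-Treg (log2 fold change 1.59, limma adjusted p = 0.0226) and Mctp1 was not called (0.0559). Nearest to Ikzf3 were Mapk6 (r = 0.994) and Frmd4b (r = 0.990), and nearest to Ikzf4 were Mical3 (r = 0.983) and Crebl2 (r = 0.982). Mical3, which encodes an actin-oxidising enzyme, was called as higher in Ebi3-Treg (log2 fold change 1.65, limma adjusted p = 0.0206). Frmd4b was called as lower (0.0248), while Mapk6 (0.0663) and Crebl2 (0.0584) were not called. Gpr83 was most like Ccdc77 (r = 0.980) and Capg most like Rab19 (r = 0.983), neither of them called (limma adjusted p = 0.112 and 0.0581).

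Of 33 Foxp3 cofactors and regulators of the Foxp3 gene, 3 were higher in Ebi3-Treg, 1 was lower and 29 did not pass, where 3.37% of all genes were higher and 2.93% lower (median log2 fold change 0.02, beside 0.07 over all genes). Hdac9, a class IIa histone deacetylase, was at 5.47 ± 2.42 and 0.479 ± 0.276 FPKM (SD, n = 4 each; log2 fold change 2.07, limma adjusted p = 0.00127). Bach2, a repressor that limits effector differentiation, was at 13.3 ± 5.15 and 2.80 ± 1.71 FPKM (1.96, 0.0183), and the early activation gene Nr4a1 at 393 ± 86.7 and 217 ± 43.4 FPKM (0.85, 0.021). Hif1a, the oxygen-sensing factor, was the gene lower in Ebi3-Treg, at 197 ± 25.4 and 379 ± 64.4 FPKM (-0.93, 0.00477). With the replicate block 9 of the list were higher and 9 lower (all genes 13.5% and 8.94%), and without Ebi3-Treg 3, Ebi3-Treg 4, Blimp1-Treg 3 or Blimp1-Treg 4 the 4 calls became 2.

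Of 12 tested genes known as repressed in Foxp3-positive cells, of 13 listed, 5 were higher in Ebi3-Treg and none was lower (median log2 fold change 1.02). Satb1 above is a gene of that kind by background. Over all genes tested, 3.37% were higher and 2.93% lower. Tcf7, the transcription factor of naive and memory-like T cells, measured 583 ± 117 FPKM in the Ebi3-Treg libraries against 96.3 ± 41.7 FPKM in the Blimp1-Treg ones (log2 fold change 2.70, limma adjusted p = 0.0028). Cd40lg, the CD40 ligand, was at 79.9 ± 14.5 and 23.9 ± 2.99 FPKM (1.69, 0.00178). Bach2, Lef1 and Themis are the other 3. With the replicate block 9 of the 12 were higher and 0 lower, beside 13.5% and 8.94% of all genes. Without both libraries numbered 2, 7 of the 12 were higher and 2 lower, beside 1110 and 852 of all 12273 genes. Without Ebi3-Treg 3, Ebi3-Treg 4, Blimp1-Treg 3 or Blimp1-Treg 4, each left out alone, 2 of the list were called.

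Of 26 tested Treg signature genes other than the 10, of 27 listed, 3 were higher in Ebi3-Treg and 9 lower. Over all genes 3.37% were higher and 2.93% lower. The median log2 fold change of the list was -0.51. Prdm1 among the lower ones was fixed by the gate. Tigit, an inhibitory receptor, measured 45.8 ± 10.4 FPKM in Ebi3-Treg while Blimp1-Treg had 232 ± 42.3 FPKM (log2 fold change -2.32, limma adjusted p = 0.000547). Plagl1, a zinc-finger factor, was the gene with the largest value in the other direction, at 45.2 ± 1.23 and 3.53 ± 2.22 FPKM (3.50, 0.00185), and Dusp4, a phosphatase of MAP kinases, was at 107 ± 19.7 and 44.6 ± 5.34 FPKM (1.23, 0.0012). Swap70 was the third higher gene (1.07, 0.0266). Genes of this list passed the test in both directions, as did the 10 genes. Without Ebi3-Treg 3, the 12 calls of the fit without the block became 7. With the replicate block 6 were higher and 12 lower, beside 13.5% and 8.94% of all genes.

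Among the partners of the Ikaros family and of neuropilin-1 no gene was called in the fit without the block. The list of Ikaros corepressor complexes holds genes of the NuRD, Sin3 and CtBP complexes, along with Ikzf5 and Smarca4. Of its 18 genes, 0 were called by limma, beside 6.29% of all genes, and the median log2 fold change was 0.20. Over all genes 2282 had an unadjusted p under 0.05. With the replicate block 6 were higher in Ebi3-Treg and 0 lower, beside 13.5% and 8.94% of all genes. The NuRD subunit genes Mbd3, Hdac1, Hdac2 and Rbbp7 had log2 fold changes of 0.43, 0.42, 0.59 and 0.33. Their limma adjusted p was 0.108, 0.133, 0.197 and 0.300 in that order, and 0.0246, 0.0131, 0.00386 and 0.0159 with the block. Of 11 tested neuropilin ligands and co-receptors, of 15 listed, 0 were called and the median was 0.22. With the block 1 was higher (Plxna1) and 2 were lower (Plxnd1 and Sema4d), beside the same shares of all genes. Plxna1, a co-receptor of neuropilin-1, measured 7.5 ± 2.98 FPKM in Ebi3-Treg while Blimp1-Treg had 3.02 ± 1.30 FPKM (1.06, adjusted p = 0.0991; 0.00274 with the block). Plxnd1, another plexin, was at 10.3 ± 5.87 and 25.9 ± 13.7 FPKM (-1.26, limma adjusted p = 0.347; 0.000828 with the block and 0.00584 within replicates 3 and 4). Vegfa and Gipc1 had log2 fold changes of 0.86 and 0.32 (adjusted p = 0.103 and 0.289; 0.0584 and 0.0949 with the block). Sema4d, named for its call with the block after its value was seen, had -0.26 (adjusted p = 0.845; 0.0381 with the block). Nrp2, Plxna2, Plxna4 and Sema3f did not reach the filter on low values.

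Among the relatives of Capg, 1 gene passed the test. Scin, which encodes the actin-severing protein scinderin of the gelsolin family to which Capg belongs, measured 21.3 ± 14.3 FPKM in Ebi3-Treg while Blimp1-Treg had 3.44 ± 3.86 FPKM (SD, n = 4 each; log2 fold change 2.63, limma adjusted p = 0.00412), against the direction of Capg. Gsn, gelsolin itself, was at 30.4 ± 2.79 and 48.9 ± 13.2 FPKM (-0.63, adjusted p = 0.126; 0.0351 with the block). Cux1, a homeodomain relative of Satb1, was at 17.1 ± 4.41 and 23.5 ± 9.90 FPKM (-0.39, adjusted p = 0.545). Of 6 tested genes in this list, of 12 listed, 1 was higher and 1 lower, the latter being Lmnb1, lamin B1 (-1.17, adjusted p = 0.0104). Over all genes 3.37% were higher and 2.93% lower. With the replicate block 1 of the list was higher and 2 were lower, beside 13.5% and 8.94% of all genes. Without Blimp1-Treg 4 the list had 1 call.

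**Figure D4:**
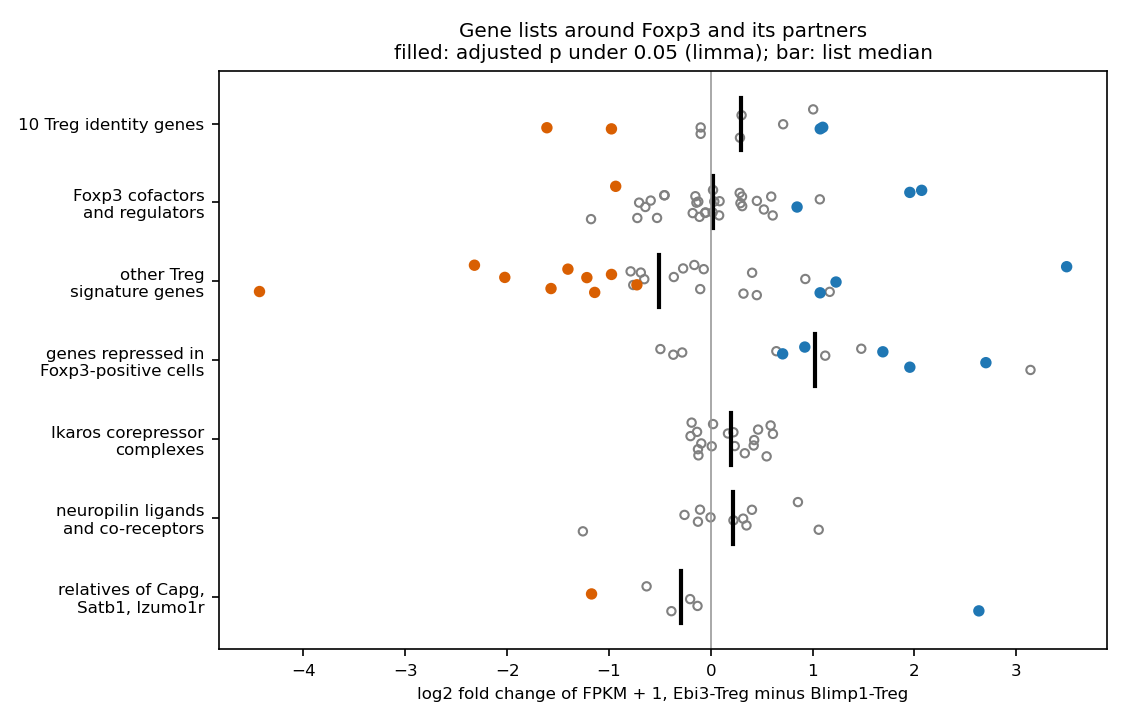
Log2 fold change of FPKM + 1, Ebi3-Treg minus Blimp1-Treg (horizontal axis), of each tested gene in the 10 Treg identity genes and 6 further lists; filled points had a limma adjusted p under 0.05 (blue higher, orange lower in Ebi3-Treg), and the black bar is the list's median. The genes repressed in Foxp3-positive cells have 5 filled points at the right and none at the left, while the other Treg signature genes have 9 at the left and 3 at the right.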

How the data were processed

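RNA from 8 sorted Treg libraries, 4 per population, was analysed from the FPKM values the authors deposited in 2 tables. The library kit was SMART-Seq v4 Ultra Low Input, per the labels' protocols. The submitters' processing notes name TopHat2 2.0.12 with Bowtie2 2.2.3, HTSeq 0.6.1 and the build mm9; how each was used, and how shared reads were counted, is not given in the sources used here. A low-input kit amplifies its cDNA, so fragments are not independent molecules.

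The 47709 and 47681 features gave 47069 shared Ensembl genes, of which 46488 matched a symbol in the GENCODE M21 names. The filter kept 12273 genes that reached 1 FPKM in 4 or more libraries. Their log2(FPKM + 1) entered a limma 3.58.1 model (R 4.3.3) that held terms for the population and the table, and a variance trend. Tests were two-sided with Benjamini-Hochberg adjustment over all 12273 genes and a threshold of 0.05. The code was tested on simulated data. Fold changes on the log2(FPKM + 1) scale understate the change of low genes. All 10 member genes are named. Of each list the 4 genes with the smallest unadjusted p are named, along with any gene set beside a member and called genes where a list has 5 or fewer in a direction. Gpr83's neighbour was chosen by position. The members and lists were chosen with earlier results of these data known.

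Whether the replicate numbers pair the libraries was checked before the fits were compared. The deviations of same-numbered libraries from their population means correlated at 0.624, 0.886, 0.534 and 0.543 over genes, all above 0.1, so the block is given wherever it changes a call. This pairing comes from the data and not from the labels, and part of it is the table: within tables it was 0.847 for numbers 1 and 2 and -0.0844 for numbers 3 and 4. The crossed pairs Ebi3-Treg 4 with Blimp1-Treg 3 and Ebi3-Treg 3 with Blimp1-Treg 4 correlated at 0.61 and 0.564. Same-numbered pairs 3 and 4 were lower, at 0.534 and 0.543, so the block is not borne out for those numbers. Alternatives were the pseudocount, the filter, the table term, the variance trend, 2 other scalings, the block, and leaving libraries out.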

Additional observations from a re-analysis of the deposited data

Results flagged for a closer look

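Capg in Ebi3-Treg had 1 library far from the other 3. Ebi3-Treg 2 stood at 1289 FPKM, while the others lay between 644 and 731 FPKM, and the gap to the nearest was 0.864 of the group's whole range (above Dixon's 95% critical value for 4 samples). Among the 20 groups tested (10 genes in 2 populations) it was the 1 group to exceed that value, and chance alone would give about 1 in 20. Without Ebi3-Treg 2 the log2 fold change of Capg was -1.15 (limma adjusted p = 0.0144).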

How the results depend on the processing

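Over all genes, the 772 calls became 420 with no filter (40415 genes tested), 2752 with the replicate block, 441 without the table term, 1970 without both libraries numbered 1, 1962 without both numbered 2, and 341 to 771 when 1 library was left out. Of the 10 genes, 4 were called, against 0 with no filter, 7 with the replicate block, 1 without the table term (Ikzf3) and 0 to 4 with 1 library left out, 0 without Ebi3-Treg 3 or Blimp1-Treg 4. Within replicates 1 and 2, the block gave 6 in place of 0. Within replicates 3 and 4, the 4 calls became 0 with no filter, 2 without the variance trend and 0 to 1 with 1 library left out, where the lone sample is assumed to vary like the other group. The difference between tables gave 0 in every setting run. The log2 fold change turned sign in leave-one-out fits of Foxp3 (-0.235 to 0.0502), Ikzf1 (-0.0171 to 0.582) and Ikzf2 (-0.270 to 0.0541), none of them called there. The other 7 genes kept their sign in all settings run. Median-ratio scaling moved the median of all genes from 0.07 to 0.00 on the log2 scale and the share of calls that were higher from 53.5% to 46.4%. The replicate block changed no call other than those of Ikzf1, Ikzf4 and Satb1 among the 10. Where the cause of a change is not the number of genes or samples, the cause was not tested. By the rough reckoning with reference lengths, each of the 10 genes held at least about 2105 fragments in a library, though fragments of an amplified library are not independent molecules.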

Other observations

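The genes that stand beside the 10 on the chromosome were looked at by position alone. Of 18 protein-coding neighbours in GENCODE M21, 11 passed the filter on low values, and 1 of them was called, as lower in Ebi3-Treg. This is Fignl1, next to Ikzf1, an ATPase gene of DNA repair, with 4.92 ± 2.36 FPKM in Ebi3-Treg while Blimp1-Treg had 12.3 ± 1.55 FPKM (SD, n = 4 each; log2 fold change -1.23, SE 0.26, limma adjusted p = 0.0296). Panx1, a channel gene on the other side of Izumo1r, was at 82.3, 94.2, 72.2 and 76.2 FPKM in Ebi3-Treg and 116, 139, 100.4 and 99.2 FPKM in Blimp1-Treg. Its libraries did not overlap, and its log2 fold change of -0.47 (SE 0.12) had an adjusted p of 0.061, or 0.00497 with the replicate block. Gpr83, Izumo1r and Panx1 stand in a row there and had log2 fold changes of 1.08, 0.29 and -0.47. Itgb1, the integrin gene beside Nrp1, was at 284 ± 49.5 and 196 ± 31.1 FPKM (0.53, adjusted p = 0.158). With the replicate block 5 of the 11 neighbours were called. Over all genes the shares called were 6.29%, and 22.4% with the block.

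Flicr, the noncoding RNA that overlaps Foxp3, was at 11.9, 6.86, 7.55 and 6.38 FPKM in Ebi3-Treg and at 5.70, 5.58, 7.08 and 5.85 FPKM in Blimp1-Treg. Its log2 fold change was 0.35 (SE 0.21, limma adjusted p = 0.479), and Ebi3-Treg 1 was the highest library.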
